A study of Mus musculus with 24 samples.

Results

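The regions described here are promoter sites at which mouse pro-B cells carried both cohesin and CTCF. They were chosen from chromatin immunoprecipitation (ChIP-seq) peak lists of the parental cell line. A CTCF site is a merged stretch with a peak in all 3 parental CTCF lists, and a Rad21 site is the same in the 3 parental Rad21 lists. A member is a Rad21 site that overlaps a CTCF site by at least 1 bp and lies within 1000 bp of an annotated transcript start. Chromosome 12 was left out, as the rule asks; the labels name a hybrid of mm9 with another sequence as the genome. The rule found 4365 members among 23904 parental Rad21 sites (18.3%), nearest to 4078 genes. The parental peaks that chose them are given only as a description. What was measured apart from the rule is the presence of peaks in the degron lines.

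All libraries came from v-Abl transformed pro-B cells, which are early B-lineage cells made permanent by the viral Abl kinase. Every line lacked RAG2 and carried the Emu-Bcl2 transgene, and all cells were held in 3 µM STI-571, an Abl inhibitor, for 4 days. The parental groups had no degron and no IAA, with 3 CTCF and 3 Rad21 libraries. The CTCFdegron groups had 3 CTCF and 3 Rad21 libraries, all given 500 µM IAA (an auxin) for 6 h before STI-571 and together with it. The Rad21degron line had 2 Rad21 libraries without IAA (NT) and 2 with the same IAA treatment. A degron is a tag that sends the fused protein to degradation when auxin is present. In the CTCF comparison the line and IAA change together, so their effects cannot be told apart. Whether a line was 1 clone and whether replicates were separate cultures is not given in the sources used here, so p-values measure only the spread between these libraries. Peak lists hold no RNA values, so the pro-B identity was not checked against marker genes.

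Cohesin is a ring of SMC proteins closed by Rad21 that extrudes loops of chromatin. CTCF is a zinc-finger protein whose bound motif, in its orientation, halts the ring, so that cohesin accumulates at CTCF sites. Cohesin is also often found at active promoters, some of which hold a CTCF motif close to the start of the gene.

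The sequences below show CTCF motifs from members with 4 outcomes, 3 after CTCF depletion and 1 after Rad21 depletion. Capitals mark a match to the core of the CTCF motif, spelled CCA, AG and GGC with 2 free bases between CCA and AG and 2 between AG and GGC, searched on both strands. All are reference sequence (mm9), read 5′ to 3′ on the strand that carries the motif, and they are the strongest members of each outcome with a match in the 301 bp around the CTCF centre and clear of annotated untranslated regions. Distances are from the nearest transcript start to the motif in the direction of the gene, and all lie outside annotated exons but that of Zkscan17, which is exonic.

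The sites of Celsr2 (an adhesion receptor of the cadherin family, chr3:108204664-108204755, plus strand, 798 bp), Ankrd2 (a muscle ankyrin-repeat protein, chr19:42109964-42110055, plus strand, -518 bp) and Cdc42bpg (a kinase that binds the GTPase Cdc42, chr19:6304946-6305037, minus strand, -1464 bp) lost both proteins in every CTCFdegron list.
Celsr2: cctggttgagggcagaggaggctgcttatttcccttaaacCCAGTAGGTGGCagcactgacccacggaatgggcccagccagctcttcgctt
Ankrd2: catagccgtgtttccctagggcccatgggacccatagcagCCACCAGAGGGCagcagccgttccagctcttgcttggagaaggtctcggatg
Cdc42bpg: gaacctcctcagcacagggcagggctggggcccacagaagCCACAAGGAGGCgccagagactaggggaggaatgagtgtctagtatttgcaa

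The sites of Ccdc110 (chr8:47020265-47020356, minus strand, 252 bp), Arhgap22 (chr14:34027061-34027152, plus strand, -105 bp) and Zkscan17 (a zinc-finger protein, chr11:59338940-59339031, plus strand, 1148 bp) kept CTCF and Rad21 in every CTCFdegron list. The 12-base cores of Ccdc110 and Arhgap22 are identical to that of Ankrd2, which lost both.
Ccdc110: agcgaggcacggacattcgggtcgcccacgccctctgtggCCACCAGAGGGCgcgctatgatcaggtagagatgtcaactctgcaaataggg
Arhgap22: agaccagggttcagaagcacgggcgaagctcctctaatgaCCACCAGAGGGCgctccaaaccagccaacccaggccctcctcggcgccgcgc
Zkscan17: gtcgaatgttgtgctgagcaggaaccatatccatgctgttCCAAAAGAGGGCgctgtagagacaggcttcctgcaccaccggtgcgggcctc

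The sites of Rhof (a small GTPase, chr5:123583321-123583412, plus strand, -665 bp), Tfrc (the transferrin receptor, chr16:32614374-32614465, minus strand, -898 bp) and Fam38a (a mechanosensitive channel, chr8:125024915-125025006, plus strand, -1174 bp) had no CTCF peak left and Rad21 in all 3 lists.
Rhof: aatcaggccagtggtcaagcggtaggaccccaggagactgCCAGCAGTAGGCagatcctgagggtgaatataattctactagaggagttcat
Tfrc: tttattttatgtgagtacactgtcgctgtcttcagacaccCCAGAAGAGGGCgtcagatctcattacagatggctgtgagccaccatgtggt
Fam38a: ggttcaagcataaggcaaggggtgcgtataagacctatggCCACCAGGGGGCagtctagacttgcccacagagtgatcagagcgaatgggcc

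The sites of Ccdc19 (chr1:174455464-174455555, minus strand, -670 bp), Arl8b (a GTPase of lysosomes, chr6:108732922-108733013, plus strand, -85 bp) and Ppp6r1 (a regulatory subunit of protein phosphatase 6, chr7:4610599-4610690, minus strand, -92 bp) still had a Rad21 peak in both lists after Rad21 itself was depleted. Ccdc19 and Arl8b also kept CTCF and Rad21 in every CTCFdegron list, so this set overlaps the second.
Ccdc19: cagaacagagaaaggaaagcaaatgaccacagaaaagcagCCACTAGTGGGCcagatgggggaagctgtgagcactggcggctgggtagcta
Arl8b: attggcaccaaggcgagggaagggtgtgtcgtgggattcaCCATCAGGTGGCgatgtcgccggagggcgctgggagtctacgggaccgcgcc
Ppp6r1: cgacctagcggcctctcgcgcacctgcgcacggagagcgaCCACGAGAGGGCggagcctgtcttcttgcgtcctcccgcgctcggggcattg

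In the parental cells the members were broad sites on the starts of mostly protein-coding genes. Their median width was 1102 bp, against 755 bp for distal sites, which are the 14933 Rad21 sites with CTCF that lie farther than 1000 bp from any start. Of the members, 3209 (73.5%) covered a start and the other 1156 lay beside one. The nearest gene was protein-coding for 3753 members (86.0%), and 428 members (9.81%) lay at starts that diverge. The CTCF centre, meaning the mean midpoint of the strongest parental CTCF peaks at the member, was at a median of -79 bp from the start in the direction of the gene, 1782 members (40.8%) had it within 250 bp, and 2530 (58.0%) had it upstream. Members ranked lower than distal sites in the parental lists. The median percentile rank by the authors' fold enrichment was 67.5 against 75.8 for Rad21 and 74.6 against 78.5 for CTCF. At the 1000 bp limit, the last members inside were those of Gm17473 at 999 bp and Gm12307 at 1000 bp. The nearest sites outside were those of Gm9967 and Col4a1, both at 1004 bp. All 4 lacked CTCF and Rad21 peaks in every CTCFdegron list, and lacked Rad21 peaks in the Rad21degron lists with IAA. CTCF was not measured in the Rad21degron line.

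The lists differed in length, from 1384 to 67810 mouse peaks, and the read depth behind them is unknown. The parental Rad21 lists held 29724 to 67810 peaks, the CTCFdegron Rad21 lists 15690 to 35224, and the CTCF lists 46657 to 52357 in parental and 8215 to 15754 in CTCFdegron cells. The Rad21degron lists held 22085 to 32913 peaks without and 1384 to 3588 with IAA. Most comparisons below are between classes of site within a list. Where lists of unlike length are compared, the value with lists shortened to equal length is given beside it. Depletion can itself shorten a list, so this setting also takes away a loss of peaks shared by all sites. Replicate 3 of the CTCFdegron groups had the shortest list of its group for either antibody.

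The CTCF comparison asked which of these promoters kept CTCF once the protein was depleted. A CTCF peak was still called at 51.4%, 55.4% and 27.9% of the members in CTCFdegron replicates 1, 2 and 3, or 44.9% ± 14.8 (SD, n = 3). At distal sites it was called at 20.2%, 28.1% and 14.3%, or 20.8% ± 6.93 (SD, n = 3). Members were higher than distal sites in all 3 libraries, by 24.1 ± 9.21 percentage points (SD, n = 3). The exact two-sided sign-flip permutation test gave p = 0.25, the smallest that 3 libraries allow. Asked of the whole set, 1128 members (25.8%) had CTCF in all 3 lists, against 12.9% of all 32214 parental CTCF sites and 15.1% of all parental Rad21 sites. CTCF was gone from all 3 lists at 1658 members (38.0%), against 71.8% of the CTCF sites and 60% of the Rad21 sites. Without replicate 3, 45.1% of the members had CTCF in every list. Promoter Rad21 sites without a parental CTCF site, described below, had CTCF peaks in CTCFdegron cells at 44.0% ± 21.0 (SD, n = 3), near the share of the members. When a peak had to cover at least 50% of the site, the difference from distal sites was 1.37 points. It was 10.9 points with peaks of a q-value of 0.001 or less, and 15.9 points with lists of equal length.

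After CTCF depletion, Rad21 peaks were called at more members than CTCF peaks were, with different antibodies and in lists of unlike length. In CTCFdegron cells with IAA, Rad21 peaks were called at 77.0%, 73.1% and 57.8% of members, or 69.3% ± 10.2 (SD, n = 3). Replicate 3 was again the lowest. Distal sites had 41.4%, 38.2% and 24.2%, or 34.6% ± 9.11 (SD, n = 3). The difference was 34.7 ± 1.08 points (SD, n = 3), from 33.5 to 35.6 in single libraries (exact sign-flip p = 0.25, the smallest possible). It was 34.3 points in the 2 libraries with a human spike-in and 35.6 points in replicate 1, which had none. A Rad21 peak was in all 3 lists at 2509 members (57.5%), against 35.6% of all parental Rad21 sites, and in none at 970 (22.2%), against 41.5%. Requiring a peak to cover at least 50% of the site reduced the difference to 22.2 points, and a q-value of 0.001 or less to 18.6 points. At the members, the Rad21 percentages exceeded the CTCF percentages by 24.4 points (exact two-sided permutation test over 3 and 3 libraries, p = 0.1, the smallest possible), a gap that was 5.68 points once all lists in it were shortened to equal length.

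The promoter sites without a parental CTCF site gave the other end of the scale. These 1836 Rad21 sites kept Rad21 in CTCFdegron cells at 97.1%, 93.1% and 70.8%, or 87.0% ± 14.2 (SD, n = 3). Members were below them by 17.7 ± 4.03 points (SD, n = 3) and lower in all 3 libraries (exact sign-flip p = 0.25). The name of that class holds only for the rule: in single parental CTCF lists, 71.5%, 33.4% and 37.5% of its sites had a CTCF peak. After CTCF depletion, CTCF peaks were called at 60.5%, 51.3% and 20.3% of them, or 44.0% ± 21.0 (SD, n = 3). The members had 51.4%, 55.4% and 27.9%, or 44.9% ± 14.8 (SD, n = 3), so the classes overlapped.

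**Figure D1:**
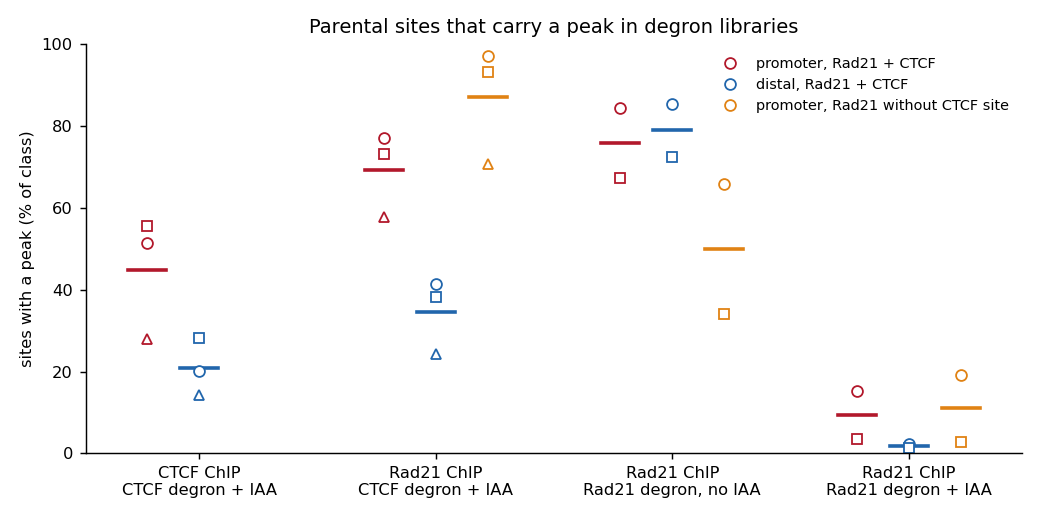
Percent of parental sites with a peak in each degron library, by site class. Circles, squares and triangles are replicates 1, 2 and 3 and bars are group means. The CTCF column leaves out the promoter sites without a CTCF site, whose mean was 44.0%. After CTCF depletion the promoter sites with both proteins (69.3% with Rad21) sit between distal sites (34.6%) and promoter sites without a CTCF site (87.0%), and after Rad21 depletion all 3 classes average 11.002% or less.

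The Rad21degron line showed how far the same members depend on Rad21 itself. Without IAA, Rad21 peaks were called at 84.4% and 67.3% of the members, or 75.8% ± 12.1 (SD, n = 2). With IAA they were called at 15.1% and 3.44%, or 9.29% ± 8.28 (SD, n = 2). The 2 groups did not overlap, and the difference was 66.6 points (two-sided p = 0.33 by exact permutation of the 4 libraries, which can go no lower). With every list shortened to the shortest, an IAA list of 1384 peaks, the difference was -0.11 points. That setting removes any loss of peaks shared by all sites, so it cannot tell such a loss from unlike list length. The difference was 8.21 points when a peak had to cover at least 50% of the site. Both lists with IAA called a Rad21 peak at 103 members (2.36%), against 1.34% of all parental Rad21 sites, and neither did at 3657 (83.8%), against 93.4%. Peaks in both NT lists and in neither IAA list were found at 2317 members (53.1%), against 58.9% of all Rad21 sites. In the untreated line 2831 members (64.9%) had a peak in both lists, against 63.4%.

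After Rad21 depletion members stood above distal sites in both libraries, but by unlike amounts. Distal sites kept Rad21 at 2.38% and 1.33%, so that the difference was 12.8 points in replicate 1 and 2.10 points in replicate 2, or 7.43 ± 7.53 (SD, n = 2; exact sign-flip p = 0.5, the smallest possible). It was -0.26 points when a peak had to cover at least 50% of the site, 2.42 points with a q-value of 0.001 or less and 3.12 points with lists of equal length. Against promoter sites without CTCF the members differed by -4.08 and 0.66 points (exact sign-flip p = 1). In the NT libraries of the same line the members differed from the distal sites by -5.12 and -1.02 points (exact sign-flip p = 0.5), and by 3.34 points when averaged within quartiles of the parental Rad21 rank. Rad21 peaks were called at more of the members after CTCF depletion than after Rad21 depletion, by 60.004 points (exact permutation test over 3 and 2 libraries, p = 0.1, the smallest possible). With lists shortened to equal length this was 1.61 points, 6.09% against 4.48%. Here too the shortening removes any loss of peaks shared by all sites. The depleted lines differ as well, and the Rad21degron line had peaks at only 75.8% of the members before IAA. The design can bring none of these 12 comparisons under 0.05, and their Benjamini-Hochberg adjusted values run from 0.429 to 1.

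Distance to the start separated the members into 2 kinds. Those that covered a start kept CTCF at 63.1%, 65.6% and 33.8%, or 54.2% ± 17.7 (SD, n = 3), and Rad21 at 90.0%, 86.8% and 70.3%, or 82.4% ± 10.5 (SD, n = 3). The 575 members 1 to 500 bp from a start kept CTCF at 21.0% ± 8.78 and Rad21 at 36.3% ± 8.71 (SD, n = 3 each). The 581 members 501 to 1000 bp away kept CTCF at 17.3% ± 6.92 and Rad21 at 29.7% ± 9.82 (SD, n = 3 each). Distal sites had CTCF at 18.1% and Rad21 at 32.0% at 1001 to 2000 bp, and 21.6% and 35.3% beyond 20000 bp. The members beside a start differed from distal sites by -1.67 ± 0.970 points for CTCF and -1.59 ± 1.35 points for Rad21 (SD, n = 3 each; exact sign-flip p = 0.25 for both). Members that cover a start differed by 33.3 ± 12.2 and 47.8 ± 1.46 points (SD, n = 3 each; exact sign-flip p = 0.25 for both). These splits were chosen after the main values were seen.

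**Figure D2:**
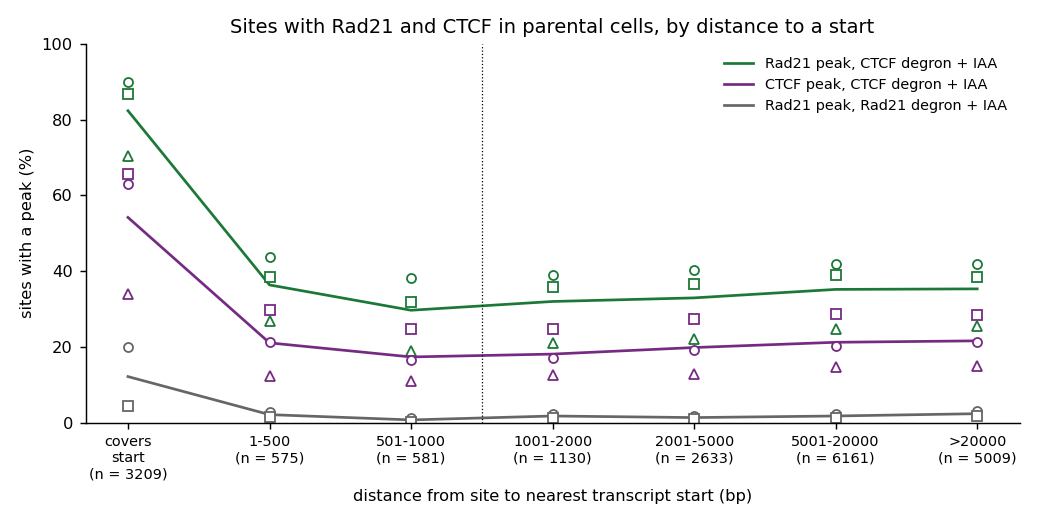
Percent of Rad21 sites with CTCF that carry a peak in degron libraries (vertical axis) by distance from the site to the nearest start (horizontal axis, bp); circles, squares and triangles are replicates 1, 2 and 3, lines join means, and the dotted line marks the 1000 bp limit. Rad21 after CTCF depletion averages 82.4% where the site covers a start and between 29.7% and 36.3% at every other distance.

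The members that cover a start were also the wide ones and the CpG-rich ones, and both properties moved with the outcome. Their median width was 1336 bp and the median CpG observed over expected ratio in the central 301 bp was 0.67. Members beside a start had 747.5 bp and 0.25, and distal sites 755 bp and 0.21. Over all members, Rad21 after CTCF depletion was kept at 42.2% ± 8.82, 60.3% ± 11.4, 84.1% ± 10.2 and 90.5% ± 10.3 (SD, n = 3 each) from the lowest to the highest CpG quartile. CTCF followed with 24.5% ± 9.32, 37.5% ± 12.8, 56.6% ± 17.4 and 60.9% ± 20.3 (SD, n = 3 each). Distal sites in the same CpG ranges had Rad21 at 28.0%, 41.7%, 57.7% and 74.1%, the last from 157 sites only. By width, Rad21 was kept at 33.6% ± 10.3 of the narrowest quartile of members (median 609.5 bp) and at 95.3% ± 5.74 of the widest (median 2573 bp; SD, n = 3 each).

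Matching members and distal sites on these properties reduced the difference between them. Averaged within CpG quartiles it was 11.5 ± 6.12 points for CTCF and 18.6 ± 0.470 points for Rad21 (SD, n = 3 each), and within width quartiles 11.7 ± 5.62 and 17.5 ± 1.22 points (SD, n = 3 each). Counting only peaks that reach the 301 bp around the CTCF centre gave 13.9 ± 6.15 and 26.9 ± 5.49 points (SD, n = 3 each). With that window and CpG quartiles together, it was 1.97 ± 2.70 points for CTCF, from -0.91 to 4.43 in single libraries, and 9.16 ± 3.82 points for Rad21, above 0 in all 3 libraries (SD, n = 3 each; exact sign-flip p = 0.5 and 0.25). Quartiles of parental Rad21 rank left both differences at 24.9 and 35.001 points.

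Where a member covered a start but had its CTCF centre 300 bp or more from every start, the peaks left after depletion could be placed. There were 1041 such members. The centre was set from the parental CTCF peaks, so the parental values are a description. In parental cells a CTCF peak lay over the CTCF centre at 91.0%, 89.4% and 88.6% of them and over a start at 55.7%, 36.3% and 38.3%. After CTCF depletion a CTCF peak lay over the centre at 17.6%, 24.02% and 8.65% and over a start at 40.9%, 38.6% and 14.3%. Rad21 in parental cells lay over the centre at 99.9%, 87.9% and 71.8% and over a start at 99.3%, 71.9% and 46.2%. In CTCFdegron cells Rad21 lay over the centre at 64.6%, 49.1% and 23.9% and over a start at 84.3%, 76.6% and 45.7%. In the CTCFdegron libraries both proteins were found more often at the start than at the CTCF centre, in 3 of 3 libraries for each antibody.

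In the Rad21degron line, whose peaks did not set the centre, the order differed between the groups. Without IAA, Rad21 lay over the centre at 53.2% and 40.4% and over a start at 39.4% and 21.9% of these members. With IAA it lay over the centre at 2.21% and 1.44% and over a start at 12.1% and 3.07%. The centre was the higher in both libraries without IAA and the start in both with it, a difference that was not tested. What the antibodies precipitate at starts after the proteins are depleted was not tested.

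**Figure D3:**
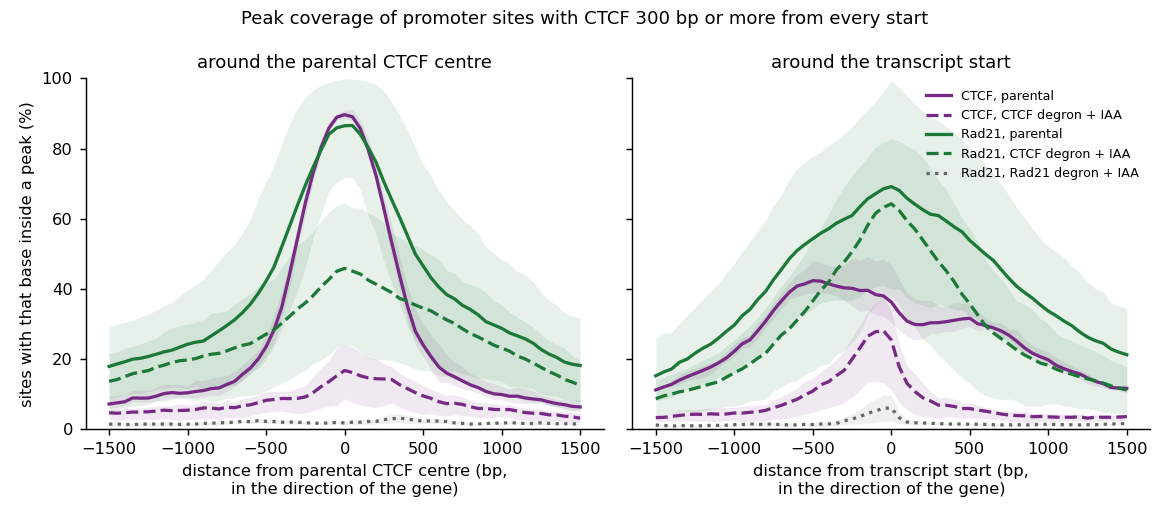
Percent of the 1041 members whose CTCF centre is 300 bp or more from every start with a given base inside a peak (vertical axis), by distance in bp from the CTCF centre (left) and from the transcript start (right); lines are group means and bands span the lowest to the highest library. The parental CTCF mean is 89.7% at the centre, which was set from those peaks. In CTCFdegron cells the CTCF mean is 16.7% at the centre and 25.5% at the start, and the Rad21 mean 45.9% and 64.3%.

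The next comparison set the CTCF left at a member against the Rad21 left there, which come from different libraries of the same line. Where no CTCF list had a peak, Rad21 was kept at 40.4%, 32.6% and 16.9% of the 1658 members, or 29.98% ± 11.9 (SD, n = 3). With CTCF in 1 of the lists (661 members) it was 85.7% ± 18.2, with CTCF in 2 (918 members) 94.2% ± 8.61, and with CTCF in all 3 (1128 members) 97.2% ± 4.48 (SD, n = 3 each). The last and the first of these differed by 67.2 ± 7.79 points (SD, n = 3; exact sign-flip p = 0.25, the smallest possible). Their median widths were 1503 bp and 796 bp, and their median parental CTCF ranks 85.6 and 73.4. The part of width or rank in this difference was not tested. Distal sites had 11.5% ± 7.38 where CTCF was gone and 97.8% ± 3.09 where it was in all 3 lists (SD, n = 3 each).

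The difference between promoter and distal sites was then split by the CTCF left. Among sites with no CTCF peak, members exceeded distal sites by 18.5 ± 4.65 points (SD, n = 3; exact sign-flip p = 0.25), by 37.2 ± 8.95 points for members covering a start, and by -0.69 ± 1.88 points for those beside a start. Among sites with CTCF in all 3 lists the difference was -0.62 ± 1.41 points (SD, n = 3; exact sign-flip p = 1), and its sign turned without Rad21 replicate 3, at 0.19. Averaged within quartiles of width or of CpG ratio, the difference among sites with no CTCF peak was 11.5 or 10.99 points. Members that lost Rad21 had nearly all lost CTCF, since 957 of the 970 with Rad21 in no list had CTCF in none. Of the 2509 with Rad21 in all 3 lists, 1038 had CTCF in all 3. Of the 1128 members with CTCF in all 3 lists, 1038 had Rad21 in all 3 and 0 had it in none; of the 1658 without CTCF, 957 had no Rad21 and 273 had it in all 3.

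**Figure D4:**
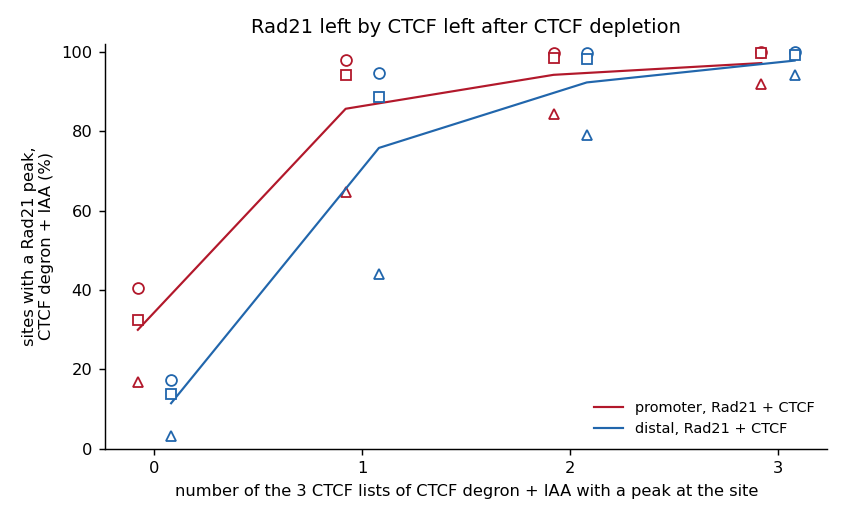
Percent of sites with a Rad21 peak in CTCFdegron cells with IAA (vertical axis) by the number of CTCF lists of that line with a peak at the site (horizontal axis), for promoter and distal sites; circles, squares and triangles are replicates 1, 2 and 3 and lines join means. At 0 CTCF lists the means are 29.98% for promoter and 11.5% for distal sites, and at 3 lists 97.2% and 97.8%.

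The loss of both proteins was seen at 957 members (21.9%), against 41.2% of all parental Rad21 sites. The strongest of these by parental rank, among protein-coding genes, was a site at Stat3, a transcription factor of cytokine signalling. It lies on chromosome 11 from 100754477 to 100755383 (mm9), over 1 of the annotated starts of the gene and an exon. The authors' fold enrichment there was 17.3, 18.5 and 22.3 for CTCF and 38.9, 31.2 and 16.2 for Rad21 in parental replicates 1 to 3. It was 15.7 and 10.8 for Rad21 in the untreated Rad21degron line, and no list of a depleted library had a peak. A second Stat3 site, on the same chromosome from 100800147 to 100801447, kept both proteins in all CTCFdegron lists. Stat3 is on the minus strand, so this second site lies upstream of the first and belongs to another annotated start.

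The other 4 strongest sites of this outcome were likewise chosen for strong parental peaks and for no peak in any CTCFdegron list. They belong to Ubtf (an RNA polymerase I factor), Tcea2 (an elongation factor), Celsr2 and Rltpr (an actin regulator). Parental CTCF fold enrichments ran from 11.3 at Rltpr to 18.8 at Tcea2, and parental Rad21 values from 10.1 at Celsr2 to 24.7 at Ubtf. In the Rad21degron line, which did not enter this choice, Rad21 was present at all 4 without IAA, between 5.10 and 9.72. With IAA no list of that line had a peak at any of them. A core CTCF motif lay in the central 301 bp of 375 of the 957 members (39.2%), the median CpG ratio was 0.23, and 31.6% covered a start.

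CTCF and Rad21 both stayed in all lists at 1038 members (23.8%), against 14% of all parental Rad21 sites. These covered a start in 88.8% of cases, had a median CpG ratio of 0.69, and 183 (17.6%) held the core motif. The strongest were Acbd4 (an acyl-CoA binding protein), Ccdc110, Lif (a cytokine of the interleukin 6 family), Arhgap22 and Zkscan17. At Acbd4, on chromosome 11 from 102963450 to 102965008, CTCF fold enrichment was 17.2, 25.2 and 28.95 in parental and 6.44, 10.4 and 6.81 in CTCFdegron libraries. Rad21 there was 34.7, 29.3 and 14.3 in parental and 17.2, 15.9 and 8.13 in CTCFdegron libraries. Fold enrichment is the peak's own value in each list and is not scaled between lists. The sites named by outcome and in the gene groups were also chosen for their high parental rank. Parental and later values therefore stand side by side, and no fall is read from them.

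Ccdc110 had CTCF at 15.6, 17.9 and 20.5 before and 6.42, 8.34 and 5.37 after. Lif, with its CTCF centre 1340 bp into the gene, had 17.9, 17.6 and 18.7 before and 8.96, 12.9 and 6.53 after. Arhgap22 had 15.7, 16.7 and 21.1 before and 6.45, 12.6 and 6.16 after, with Rad21 still at 22.4, 23.8 and 10.8. None of these 5 sites had a Rad21 peak after Rad21 depletion.

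Rad21 without CTCF was the rarer outcome: 273 members (6.25%), against 4.68% of all parental Rad21 sites. Of these, 91.9% covered a start, the median CpG ratio was 0.68, and 40 (14.7%) held the core motif. In the Rad21degron line 140 of the 273 had Rad21 in both NT lists and neither IAA list, and 24 had a peak in at least 1 IAA list. Of all members, 53.1% had Rad21 in both NT lists and neither IAA list, a share near that of the 273. A peak was in neither IAA list at 83.8% of all members. The strongest sites were at Rhof, Gimap8 (a GTPase of lymphocytes), Slc25a1 (the mitochondrial citrate carrier), Emid2 and Dnahc17 (a dynein heavy chain). At Rhof, on chromosome 5 from 123582139 to 123584154, CTCF was 10.4, 12.9 and 14.7 in parental cells and had no peak in the CTCFdegron lists. Rad21 there was 29.9, 21.7 and 11.6 in parental and 4.94, 5.97 and 5.38 in CTCFdegron libraries. Slc25a1 had Rad21 at 14.4, 17.1 and 9.07 before and 5.37, 5.34 and 4.60 after.

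Rad21 remained in both lists after Rad21 depletion at the 103 members counted above. These had a median width of 2068 bp, 93.2% covered a start, and 6 (5.83%) held the core motif. The strongest were at Clcn4-2 (a chloride transporter of endosomes), Mapk14 (the p38 alpha kinase), Trappc5 (a subunit of a vesicle tethering complex), Fam149b and Dip2b, all over a start. At Clcn4-2, on chromosome 7 from 7251794 to 7252583, Rad21 fold enrichment was 8.52 and 6.00 without IAA and 8.64 and 6.45 with IAA. At Mapk14, on chromosome 17 from 28827655 to 28829627, it was 9.57 and 6.96 without and 6.00 and 5.87 with IAA. At Trappc5 it was 4.86 and 5.16 without and 5.29 and 5.38 with IAA. These sites were chosen for a peak in both IAA lists, and fold enrichment is not scaled between lists. No change with IAA is read from these values. All 5 had Rad21 in every CTCFdegron list, and all but Fam149b, which lacked replicate 3, had CTCF in every list of that line.

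**Figure D5:**
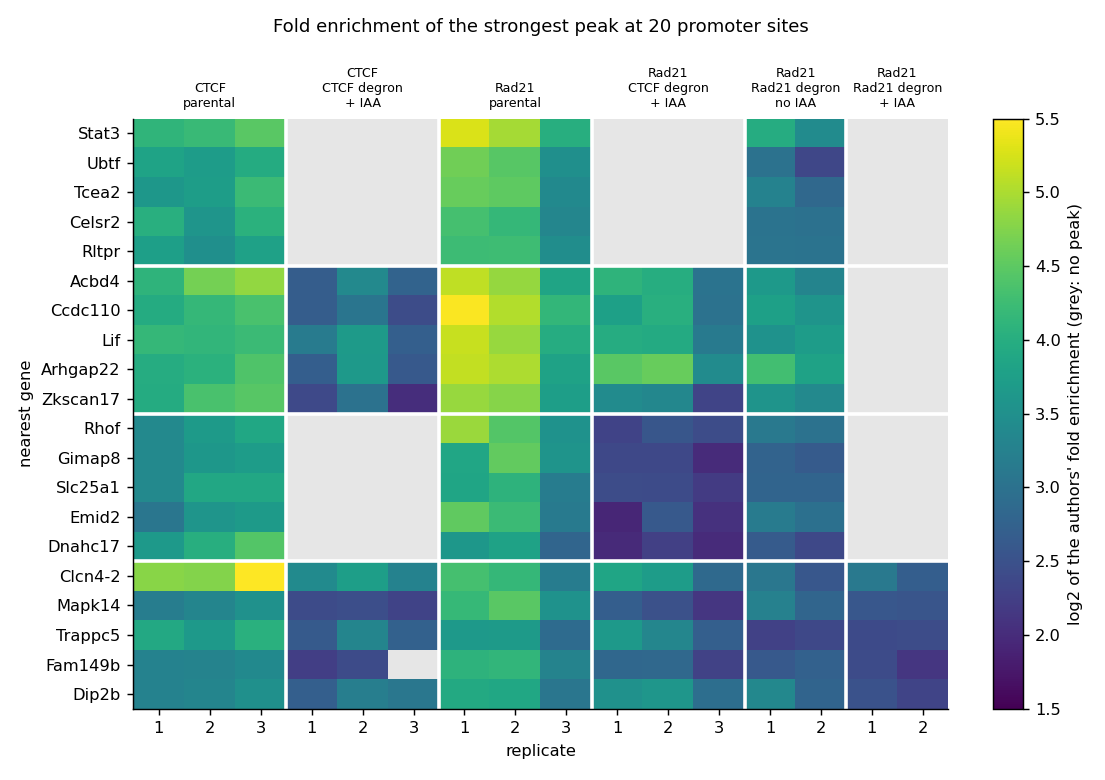
Authors' fold enrichment (log2, colour) of the strongest peak at the 20 sites named by outcome (rows, by nearest gene) in each library (columns, replicates within groups); grey means no peak. From top to bottom the blocks of 5 are sites that lost both proteins, kept both, kept Rad21 without CTCF, and kept Rad21 after Rad21 depletion; Stat3 reaches 38.9 (linear) for Rad21 in parental replicate 1 and is grey in all depleted libraries.

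Outcomes also followed the strength of the parental CTCF peak, though not in 1 direction. By quartile of the parental CTCF rank, from weakest to strongest, CTCF was kept at 53.4% ± 21.2, 30.3% ± 12.3, 34.4% ± 14.3 and 61.5% ± 13.7 of members (SD, n = 3 each). Rad21 after CTCF depletion was kept at 84.6% ± 10.6, 57.0% ± 10.2, 56.7% ± 11.1 and 78.9% ± 8.81 (SD, n = 3 each). The weakest and the strongest quartile kept more of both proteins than the middle quartiles in each library. The weakest quartile was also the widest, with a median of 1449 bp against 927 to 1044 bp in the others. In the untreated Rad21degron line Rad21 was called more often at each higher quartile, at 60.95%, 64.99%, 84.4% and 93.0%. The part of width was not tested within these quartiles.

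Divergent starts, where genes on opposite strands begin close together, kept both proteins more often. CTCF was kept at 71.5%, 75.9% and 38.8% of the 428 divergent members and at 49.2%, 53.2% and 26.7% of the others. Rad21 after CTCF depletion was kept at 94.6%, 91.4% and 79.4% against 75.1%, 71.1% and 55.4%. After Rad21 depletion the values were 26.2% and 6.07% against 13.9% and 3.15%. Divergent members had a median width of 1379.5 bp against 1063 bp for the others, and the part of width was not tested. Members at protein-coding genes kept CTCF at 45.9% ± 15.4 and at long intergenic RNA genes (140 members) at 50.7% ± 18.5 (SD, n = 3 each). Small nucleolar RNA genes (55 members) had 27.3% ± 3.64 and pseudogenes (110 members) 25.8% ± 9.15 (SD, n = 3 each). Rad21 followed with 71.3%, 74.3%, 30.9% and 42.1%.

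Members at immunoglobulin V segments numbered 31, of which 16 lay on chromosome 6, which holds the kappa light-chain locus. CTCF was kept there at 38.7%, 51.6% and 19.4% and Rad21 after CTCF depletion at 74.2%, 67.7% and 51.6%. No V-segment member had a Rad21 peak in either list after Rad21 depletion, while 93.5% and 67.7% had a peak in the untreated Rad21degron line. Of all members, 83.8% had no peak in either list after Rad21 depletion, and 84.4% and 67.3% had a peak in the untreated line. With 31 members, no trait of V segments is read from these values. Among chromosomes, the 62 members on X had the lowest values for both proteins. They kept CTCF at 28.5% ± 8.88 and Rad21 at 48.9% ± 17.1 (SD, n = 3 each), against 41.4% to 52.9% and 65.3% to 74.5% on the autosomes used here. Members on X had a median width of 759 bp, and the part of width was not tested.

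The core motif was less frequent around the CTCF centre of members than of distal sites. Members were wider (median 1102 bp against 755 bp), and a motif outside the window of 301 bp was not counted. It lay in the central 301 bp of 1027 members (23.5%), 43.1% of distal sites, 1.96% of promoter sites without CTCF and 2.42% of the windows of equal length around 68180 protein-coding starts. Members covering a start had it in 17.5% of cases and members beside a start in 40.1%. A GC box (GGGCGG, both strands) was found in 35.5% of members, 6.93% of distal sites, 53.9% of promoter sites without CTCF and 40.9% of the protein-coding starts. Members with the core motif kept CTCF at 34.3% ± 12.7 and those without it at 48.2% ± 15.6, and kept Rad21 at 54.4% ± 9.63 and 73.9% ± 10.3 (SD, n = 3 each). Both were lower with the motif in 3 of 3 libraries. The parts of width, CpG content and cover of a start in this were not tested. The motif pointed along the gene in 537 of 1027 members (52.3%), and in 114 of 194 (58.8%) where CTCF stayed in all 3 lists.

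Of all 21538 annotated protein-coding genes off chromosome 12, 3483 (16.2%) had a member at their start. Among the 3753 members at such genes, CTCF was in all 3 CTCFdegron lists at 26.0% and in none at 36.6%, and Rad21 was in all 3 at 59.4% and in none at 20.2%. After Rad21 depletion, Rad21 was in both lists at 2.08% and in neither at 82.9% of them. These are the shares against which the following gene groups are read, as counts without a test.

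B-lineage transcription factors, the regulators that set and hold B-cell identity, had a member at 15 of 24 genes (62.5%). Of their 19 members, 7 had CTCF in all 3 lists and 7 in none, while Rad21 was in all 3 lists at 15 and in none at 0. At Bach2, a repressor of plasma cell fate, on chromosome 4 from 32334617 to 32338330, CTCF was 10.5, 10.7 and 13.7 in parental and 4.68, 6.498 and 4.85 in CTCFdegron libraries. Rad21 there was 9.32, 17.5 and 8.34 in parental and 7.36, 6.85 and 4.49 in CTCFdegron libraries. At Myb, a factor of lymphoid progenitors, CTCF was 7.28, 9.15 and 10.1 in parental cells and absent from every CTCFdegron list. Rad21 at Myb was 9.57, 9.51 and 8.85 before and 5.71, 5.43 and 5.12 after. Pax5, the factor that commits cells to the B lineage, had 3 members with CTCF in 2, 0 and 0 of the CTCFdegron lists. Ebf1, Sox4, Runx1, Pou2f2 and Pou2af1 had both proteins in all 3 lists, and Ikzf1 had CTCF in 0 and Rad21 in 1.

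Genes of the pre-B receptor and the B-cell surface had a member at 6 of 18 genes (33.3%). Rad21 was in all 3 CTCFdegron lists at 5 of the 6 members, CTCF in all 3 at 1, and Rad21 in neither list after Rad21 depletion at all 6, near the 82.9% of all such members. The member with both proteins in all lists was at Il7r, the receptor for interleukin 7. At Cd72, an inhibitory co-receptor, CTCF was 4.30, 4.58 and 5.78 in parental cells and 4.05 in CTCFdegron replicate 2 alone. Rad21 at Cd72 was 6.20, 5.86 and 4.93 before and 7.17, 5.33 and 5.95 after, with overlap between the groups.

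Genes of DNA end joining and the damage response, which repair the breaks made in V(D)J recombination, had a member at 11 of 25 genes (44%). CTCF was in all 3 lists at 7 of their 13 members (53.8%) and in none at 1, and Rad21 was in all 3 at 12. At Nbn, of the MRE11 complex, CTCF was 9.08, 10.0 and 10.0 in parental and 6.62, 11.2 and 7.64 in CTCFdegron libraries, so the groups overlapped. At Xrcc5, which encodes Ku80, on chromosome 1 from 72353005 to 72354407, CTCF was 8.52, 9.44 and 11.1 in parental cells and had no peak after depletion. Rad21 at Xrcc5 was 7.41, 6.39 and 5.46 before and 5.26, 5.49 and 4.65 after. Xrcc6, which encodes Ku70, had 3 members with CTCF in 3, 2 and 3 of the lists. At Lig4, the ligase of end joining, Rad21 was 5.90 and 4.63 without IAA and 4.93 in IAA replicate 1 alone.

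Cohesin and CTCF genes had a member at 9 of 23 genes (39.1%), with Rad21 in all 3 CTCFdegron lists at 7 and in none at 0. At Pds5b, a cohesin regulator, CTCF was 12.8, 12.04 and 17.0 in parental and 7.31, 9.06 and 7.12 in CTCFdegron libraries. At Smc3, a subunit of the ring, CTCF was 9.71, 10.5 and 13.5 in parental cells and 5.75 and 4.94 in CTCFdegron replicates 1 and 2, with no peak in replicate 3. The promoter of Ctcf itself had CTCF in 2 and Rad21 in 3 of the lists, and a Rad21 peak in 1 list after Rad21 depletion.

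Cell cycle and survival genes had a member at 12 of 28 genes (42.9%). CTCF was in all 3 lists at 6 of 13 members and in none at 0, and Rad21 was in all 3 at 11. At Bcl2l1, which encodes the survival protein Bcl-xL, CTCF was 10.1, 9.33 and 12.2 in parental and 5.98, 9.91 and 7.42 in CTCFdegron libraries, with overlap. At Ccnd1, a cyclin of the G1 phase, CTCF was 12.02, 11.8 and 14.7 before and 5.90, 9.01 and 5.18 after. At Cdkn1a, an inhibitor of cyclin-dependent kinases, it was 13.8, 11.3 and 14.0 before and 7.88, 10.6 and 6.58 after. Both sites had CTCF in all 3 CTCFdegron lists.

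Genes of Abl and JAK-STAT signalling had a member at 11 of 20 genes (55%). CTCF was in all 3 lists at 4 of 12 members and Rad21 at 11, the exception being the Stat3 site described above. Jak2, a kinase of cytokine receptors, had CTCF in 0 and Rad21 in 3 of the lists. At Socs1, a feedback inhibitor of the pathway, CTCF was 11.5, 9.53 and 13.1 before and 4.46 and 6.72 in CTCFdegron replicates 1 and 2, with no peak in replicate 3.

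Groups of genes used in all cells had members less often than the B-lineage factors and more often than the average gene, by count. Ribosomal protein genes had a member at 11 of 29 (37.9%), with CTCF in all 3 lists at 7 and Rad21 at 10. At Rplp0, a protein of the ribosomal stalk, CTCF was 14.0, 14.8 and 19.2 before and 7.68, 11.5 and 5.86 after, and the untreated Rad21degron lists had no Rad21 peak. At Rps19 Rad21 stayed in both lists after Rad21 depletion, at 6.19 and 4.92 against 4.75 and 4.89 without IAA. Proteasome and ubiquitin genes had a member at 7 of 23 (30.4%), with Rad21 in both lists after Rad21 depletion at Fbxw7 and Cul4a, or 2 of 7 members. RNA polymerase II, Mediator and splicing genes had a member at 10 of 30 (33.3%), with CTCF in none of the lists at 4 of 11 members and Rad21 in none at 3. Of these, Cdk9, the kinase that releases paused polymerase, had 2 members. The site from 32563902 to 32564712 on chromosome 2, 529 bp from 1 annotated start, lost both proteins in every CTCFdegron list. The site from 32567337 to 32571311 lies over another start and kept CTCF at 4.73, 6.68 and 5.07 and Rad21 at 7.91, 7.26 and 5.38.

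Chromatin modifier genes had a member at 9 of 28 (32.1%), with CTCF in none of the lists at 3 of 10 members and Rad21 in none at 2. Both of the latter were histone H3 lysine 9 methyltransferase genes, Ehmt1 and Ehmt2. At Ehmt2 the site lies 896 bp from the start, and CTCF was 9.57, 8.15 and 11.2 and Rad21 11.2, 10.8 and 6.29 in parental cells. Clustered protocadherin genes, adhesion genes whose promoters carry CTCF motifs, were listed by 18 symbols, of which 7 are in the annotation. Of these 7, Pcdhb5 and Pcdhb16 had a member, and both lost both proteins in every CTCFdegron list. Members at Pcdha11 (2 sites), Pcdhb11, Pcdhb12 and Pcdhb14, which are not in the list and were looked up after the values were seen, also had 0 lists with either protein. At Pcdhb16 the parental values were 10.4, 11.7 and 12.9 for CTCF and 20.9, 17.7 and 9.25 for Rad21. Hox genes, which set position along the body axis, had a member at 2 of 24 (8.33%), Hoxa7 and Hoxc10, each with CTCF in 1 of the 3 lists.

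Genes with more than 1 member showed that outcomes differ within a gene. Of 248 protein-coding genes with at least 2 members, 53 had a member with CTCF in none and another with CTCF in all 3 CTCFdegron lists. For Rad21, 92 of them had a member in none and another in all 3 lists. Stat3 and Cdk9 are examples of both, each with its members at different annotated starts.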

How the data were processed

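Of 24 samples, the 16 immunoprecipitated libraries have a peak list each; the 8 inputs have none here and were not used. Reads were aligned to a hybrid of mm9 with another sequence per the labels, and the submitters' processing notes name Bowtie2 2.2.8 and SAMtools 1.8; the peak caller, its threshold and any use of inputs are not given in the sources used here. Lists were deposited per library, with the authors' fold enrichment (a linear ratio), −log10 of p and q, and a score per peak; the authors' score was not used further. They hold no counts, so depth is unknown and no counting interval can be given. In 8 lists peaks on human spike-in contigs were dropped.

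Sites were merged, classified against GENCODE vM1 starts and called kept where a peak overlapped by at least 1 bp (Python 3.11.15, pandas 2.3.3, numpy 2.4.6, pysam 0.24.0). Sequence features were read from NCBIM37 (mm9). Classes were compared within libraries by exact two-sided sign-flip permutation tests and groups by exact permutation over libraries. The steps recovered the set shares in simulated lists. Members, gene groups and tests were chosen with earlier results of these data known. Named sites are, for each of 4 outcomes, the 5 members with the highest mean parental rank at protein-coding genes with a full symbol and a central 31 bp that occurs once in the reference, and up to 4 per gene group; other members of the groups are named for their counts. In the main tests, replicate numbers were not used to pair libraries. Members' deviations from group means correlated between -0.07 and 0.08 for equal numbers. This correlation leaves out any shift shared by all members of a library, so it cannot exclude a pairing. Alternatives were thresholds, overlap, start distance, start type, chromosomes, list length, rank quartiles, spike-in libraries and each library left out. The splits by cover of a start, CTCF centre, width and CpG content were chosen after seeing the data.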

Additional observations from a re-analysis of the deposited data

How the results depend on the processing

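Of 293 recalculations of the 12 tested comparisons, 276 kept the direction and 17 turned it; of 130 recalculated counts, 110 stayed within 1.5 times. Causes were not tested unless the setting itself shows them. A q-value of 0.001 or less left 2515 members, of which 14.5% had CTCF and 22.8% Rad21 in every list after CTCF depletion, 34.1% Rad21 in none, and 1.19% Rad21 in both lists after Rad21 depletion. Members minus distal then fell from 24.1 to 10.9 points for CTCF, from 34.7 to 18.6 points for Rad21, and from 7.43 to 2.42 points for Rad21 after Rad21 depletion. With at least 50% of the site covered, these shares were 1.37%, 8.22%, 39.8% and 0.39%, with 91.3% of members without CTCF in any list; after Rad21 depletion the members differed from distal sites by -0.26 points and from promoter sites without CTCF by 0.50 points, and among sites with CTCF in all 3 lists promoter minus distal was 2.70 points. Shortening lists to the shortest gave -0.11 points for the untreated minus the IAA libraries of the Rad21degron line, and 1.61 points for Rad21 after CTCF minus after Rad21 depletion. Both values come from lists cut to the length of a depleted list, which removes any loss of peaks shared by all sites. Within quartiles of parental Rad21 rank, members minus distal was 3.34 points in the untreated Rad21degron line, members minus promoter sites without CTCF 0.034 points after Rad21 depletion, and promoter minus distal with CTCF in all 3 lists 0.84 points.

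Leaving out each library in turn, Rad21 in every list after Rad21 depletion ran from 2.24% to 15.1% of members (15.1% without IAA replicate 2), CTCF in every list from 23.8% to 45.1%, members minus promoter sites without CTCF after Rad21 depletion from -4.08 to 0.66 points, members minus distal in the untreated Rad21degron line from -5.12 to 0.81 points (0.81 without parental Rad21 replicate 3), and promoter minus distal with CTCF in all 3 lists from -1.12 to 0.19 points. The other leave-one-out ranges kept their sign, among them 20.5 to 29.3 points for CTCF and 32.9 to 36.99 points for Rad21, members minus distal after CTCF depletion.

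Of the settings added after seeing the data, a peak within 150 bp of the centre left Rad21 in both lists after Rad21 depletion at 1.31%. Members minus promoter sites without CTCF after Rad21 depletion became 0.41 points within CpG quartiles, 0.67 points with both, and 1.14 points for members covering a start, of which 9.50% had no Rad21 list left after CTCF depletion. The 1156 members beside a start had CTCF in every list at 10.6% and in none at 70.8%, Rad21 in every list at 22.5% and in none at 57.5%, and Rad21 in both lists after Rad21 depletion at 0.61%. Their differences from distal sites were -1.67 points (CTCF), -1.59 points (Rad21), -0.47 points (Rad21 after Rad21 depletion) and -0.69 points (no CTCF left).

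Equal replicate numbers were also used as a replicate block. This gave 66.6 points for untreated minus IAA (exact sign-flip p = 0.5, n = 2). For Rad21 minus CTCF after CTCF depletion it gave 24.4 points (exact sign-flip p = 0.25, n = 3). The correlation of equal numbers did not show a pairing and could not exclude a pairing. No count of calls enters these values. Peak presence has a threshold, so a weak signal under it counts as lost, and the lists give no depth with which to set that limit.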
